A study of Mus musculus with 34 samples.

Results

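A set of 9 genes of the BMP (bone morphogenetic protein) system were followed through 14 RNA-Seq libraries of immortalized brown preadipocytes. They comprise the ligands *Bmp2*, *Bmp4*, and *Bmp7*, the secreted antagonists *Grem1*, *Nog*, and *Fst*, the receptors *Bmpr1a* and *Bmpr2*, and the target gene *Id1*, which is 9 of 23109 genes in the deposited files. The genes were picked partly on measured values of the same libraries, because *Grem1* was higher at D2 in both kinds of perturbed cells, so the D2 values are given as a description. Preadipocytes from the interscapular brown fat of newborn pups were immortalized with SV40T. In the first experiment they carried retrovirus for WT or K36M mutant histone H3.3 and were collected at day 0, 2, and 7 of adipogenesis (3 WT and 3 K36M libraries). In the second, cells carrying WT or K36M H3.3 also received retrovirus for PPARγ (4 libraries). Their sample labels give DMSO at 0 h or Rosi (rosiglitazone, a PPARγ ligand) at 24 h, whereas the study describes 24 h for both DMSO and Rosi. In the third, cells with lentiviral Ctrl or *Nsd2* knockdown (KD) shRNA were collected at D0 and D2 (2 libraries each). Adipogenesis was induced at D0 with insulin, T3, IBMX, dexamethasone, and indomethacin. After 2 days of induction the added factors were insulin and T3 only. From D2 to D7, time and change of medium therefore cannot be told apart. The study describes the PPARγ cells as sub-confluent when treated.

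K36M is a lysine-to-methionine histone mutant that blocks methylation of H3 at lysine 36, and Nsd2 is an enzyme that places the dimethyl mark there. The sample labels describe C57BL/6J cells with a floxed glucocorticoid receptor gene, to which a control or Cre vector was given, whereas the study's methods describe WT newborn mice. Which vector each RNA-Seq line received is not told by its label. All lines are immortalized and virally infected, and nothing in the sources used here says that lines were made more than once.

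BMPs are secreted dimers that bind type I and type II serine/threonine kinase receptors on the cell surface. The receptors phosphorylate Smad proteins, which join Smad4, enter the nucleus, and switch on genes such as the Id family, whose products hold back differentiation factors by binding them in inactive pairs. Gremlin and noggin capture BMPs outside the cell, follistatin captures activins and, less tightly, some BMPs, and BMP4 and BMP7 are known for drawing precursor cells toward the fat lineage.

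Each library held between 12213559 and 24365867 mapped reads, recovered from the RPKM values (reads per kilobase of transcript, scaled to the mapped reads of the library). With 1 library per condition no difference has a replicate check and no test between conditions was made. Log2 ratios are given with a 95% Clopper-Pearson interval of the reads, which covers counting error only and compares 2 libraries, not 2 conditions. To be counted, a gene needed 1 RPKM or more in either library, and a ratio over 2-fold was called. The comparisons by day and by perturbation share libraries. *Nsd2* had an RPKM of 19.9 in Ctrl and 5.85 in KD cells at D0, and of 29.0 and 7.01 at D2. Of the markers of brown fat cells, *Fabp4* spanned 7.16 to 3249 RPKM, while *Ucp1* did not pass 0.194 and *Cidea* did not pass 0.0973 in any library. The preadipocyte marker *Ebf2* lay between 3.16 and 25.4. Summed RPKM did not pass 2.47 for 4 endothelial genes, 3.11 for 4 leukocyte genes, and 3.98 for 5 muscle genes.

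On mm9, *Grem1* (NM_011824) lies on chromosome 2 from 113586321 to 113598803, *Bmp2* (NM_007553) on chromosome 2 from 133377895 to 133388621, and *Bmp7* (NM_007557) on chromosome 2 from 172693513 to 172765822. *Id1* (NM_010495) is on the same chromosome from 152561987 to 152563146. *Bmp4* (NM_007554) spans 47003195 to 47010344 and *Bmpr1a* (NM_009758) 35223920 to 35316527 on chromosome 14. *Nog* (NM_008711) is on chromosome 11 from 89161952 to 89163873, *Fst* (NM_008046) on chromosome 13 from 115242470 to 115249159, and *Bmpr2* (NM_007561) on chromosome 1 from 59821481 to 59927703. All 9 were represented by a single RefSeq transcript, and the reads refer to that transcript.

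The window before the start site of *Grem1*, the member with the widest range, is shown with those of both receptors, which varied least among the members counted. RefSeq promoter windows (250 bases before to 50 after the start, GRCm38.p6) matched 4 members, *Grem1*, *Bmpr1a*, *Bmpr2*, and *Bmp4*. *Id1*, *Nog*, *Fst*, *Bmp2*, and *Bmp7* were not matched. The 250 bases before the start are printed on the strand of the gene, 5′ to 3′, with 2 motifs that Smad proteins are known to bind in capitals, GGCGCC and GTCT, the latter also as AGAC on the other strand.
Grem1, chr2:113758649-113758898, minus strand: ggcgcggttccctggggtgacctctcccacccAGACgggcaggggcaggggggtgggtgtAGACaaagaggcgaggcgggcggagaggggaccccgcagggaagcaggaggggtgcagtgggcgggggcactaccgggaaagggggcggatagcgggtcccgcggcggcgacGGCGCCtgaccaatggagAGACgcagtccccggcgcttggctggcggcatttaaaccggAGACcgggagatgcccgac
Bmpr1a, chr14:34502547-34502796, minus strand: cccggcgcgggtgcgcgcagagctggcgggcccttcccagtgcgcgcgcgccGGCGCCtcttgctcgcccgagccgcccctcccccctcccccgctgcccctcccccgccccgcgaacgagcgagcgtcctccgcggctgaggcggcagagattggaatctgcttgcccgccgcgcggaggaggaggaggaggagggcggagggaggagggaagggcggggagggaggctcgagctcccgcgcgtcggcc
Bmpr2, chr1:59764029-59764278, plus strand: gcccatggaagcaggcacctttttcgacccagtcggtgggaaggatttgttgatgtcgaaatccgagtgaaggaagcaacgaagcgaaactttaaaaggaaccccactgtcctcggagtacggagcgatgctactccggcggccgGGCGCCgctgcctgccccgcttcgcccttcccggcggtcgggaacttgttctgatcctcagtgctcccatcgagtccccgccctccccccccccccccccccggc

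The whole *Grem1* window held 1 GGCGCC, with its first base 78 bases before the start, and 6 matches to GTCT on either strand. One of these began 60 bases before the start, within 20 bases of the GGCGCC. Among 32851 promoter windows 11.9% held GGCGCC, 88.0% held GTCT, and 2.52% held both within 20 bases. *Bmpr1a* and *Bmpr2* each held 1 GGCGCC, with 1 and 0 matches to GTCT and none within that distance, and *Bmp4* held 0 GGCGCC and 2 GTCT. GTCT occurs in most windows, and a match is a description of letters and not of binding.

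The 3 ligands were barely detected. *Bmp2*, which codes for a ligand best known from bone and heart development, had between 0 and 14 reads per library and a highest RPKM of 0.456, in K36M cells at D7. *Bmp4* had between 0 and 5 reads, with 0 reads in 6 libraries, which allows an RPKM of up to 0.0692 to 0.123 in those libraries at 3 reads. *Bmp7*, whose product is known for promoting brown fat formation, had between 0 and 23 reads and a highest RPKM of 0.683, in PPARγ K36M cells with Rosi. None of these ligands reached an RPKM of 1 in any library, so none was counted in the 2-fold calls.

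Within these low counts *Bmp7* was higher in the K36M library of every pair. It had 18 reads against 1 at D0, 5 against 0 at D2, 3 against 1 at D7, 23 against 3 with PPARγ and DMSO, and 17 against 0 with PPARγ and Rosi. The log2 ratio was 4.28 (1.61 to 9.66) at D0 and 2.77 (1.05 to 5.15) with DMSO, and at D7 its interval of -1.93 to 7.42 held 0. *Nsd2* KD cells had 5 reads of *Bmp7* at D0, where Ctrl cells had 0, and 5 at D2, where Ctrl cells had 3. *Bmp2* had 14 reads in K36M against 1 in WT cells at D7, and 12 reads in KD against 2 in Ctrl cells at D0. The summed RPKM of the 3 ligands stayed between 0.0544 and 0.913, below that of either receptor in every library. Secreted protein, and ligand reaching the cells from serum, were not measured.

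*Nog*, which codes for noggin, was also below an RPKM of 1 throughout, with between 1 and 25 reads. Its highest value was 0.786 in PPARγ WT cells with Rosi (25 reads), where the DMSO library held 6 reads (log2 ratio 2.45, 1.13 to 4.03). In PPARγ K36M cells the same libraries held 6 reads with Rosi and 8 with DMSO (0.53, -1.28 to 2.25). *Nsd2* KD cells had 3 and 4 reads at D0 and D2, where Ctrl cells had 12 and 20. At D2 the interval of -4.14 to -0.55 did not hold 0, whereas at D0 that of -4.28 to 0.07 did.

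**Figure D1:**
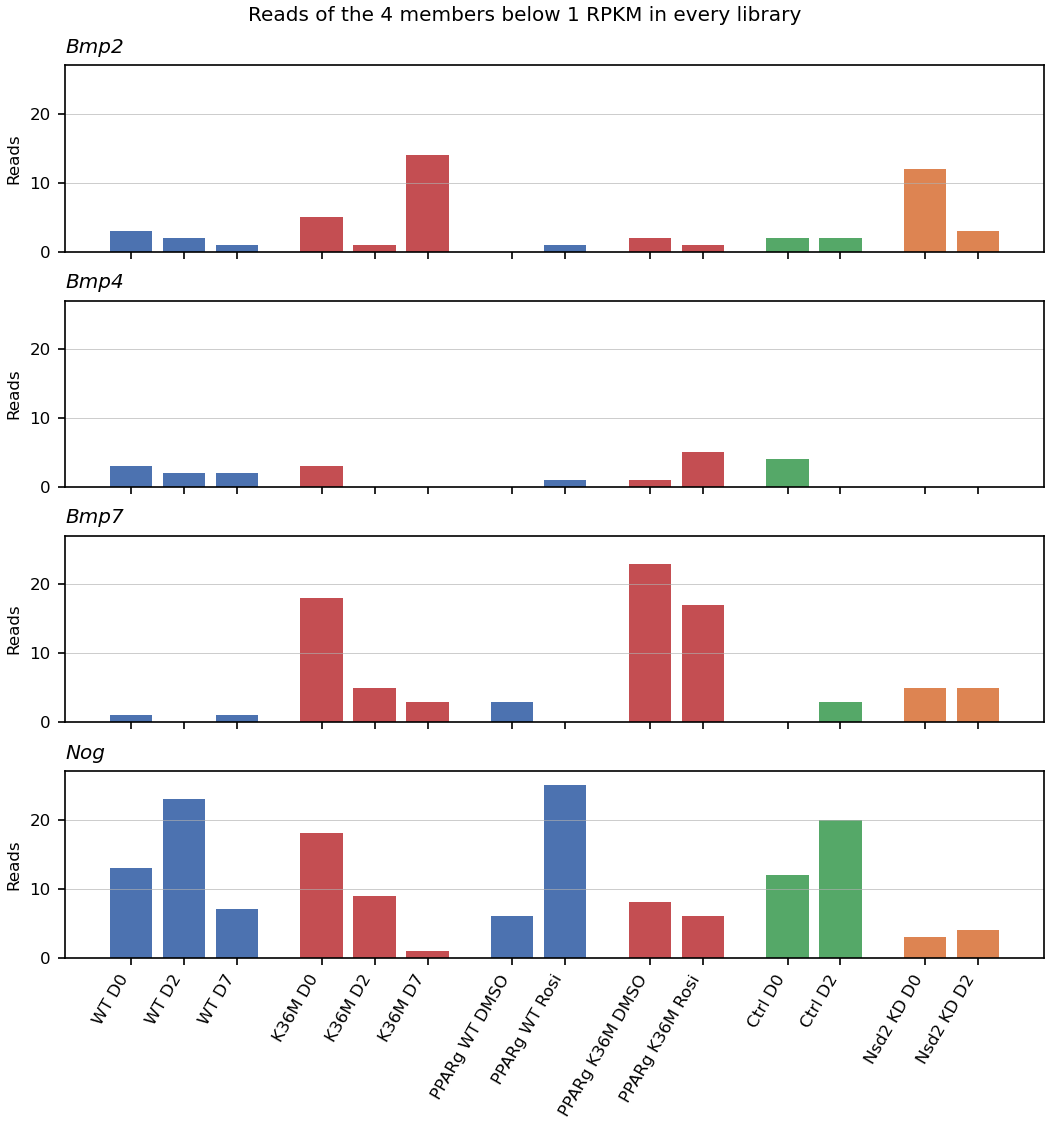
Reads per library (vertical axis, from 0) of Bmp2, Bmp4, Bmp7, and Nog in each of the 14 libraries, colored blue for WT, red for K36M, green for Ctrl, and orange for Nsd2 KD. No bar passes 25 reads, and the Bmp7 bars of 18, 23, and 17 reads all belong to K36M libraries.

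*Grem1*, which codes for gremlin, was the member with the widest range, from an RPKM of 1.24 (41 reads) to 485 (15788 reads). At D0, D2, and D7 it stood at 255, 4.47, and 17.7 RPKM in WT cells, and at 485, 59.4, and 384 in K36M cells. In PPARγ WT cells it was 10.3 with DMSO and 6.09 with Rosi, and in PPARγ K36M cells 68.3 and 34.6. At D0 and D2 it stood at 60.9 and 1.24 in Ctrl cells, and at 181 and 10.9 in KD cells. The perturbed library was the higher one in 5 of 5 K36M pairs and 2 of 2 KD pairs. The D2 pairs among these are those on which *Grem1* was picked. The D0 library was higher than the D2 library in all 4 lines.

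Ranked by level, K36M D0 was followed by K36M D7, WT D0, KD D0, PPARγ K36M DMSO, Ctrl D0, K36M D2, PPARγ K36M Rosi, WT D7, KD D2, PPARγ WT DMSO, PPARγ WT Rosi, WT D2, and Ctrl D2. Of the 13 neighbouring pairs in this order, 2 had a counting interval that held 0, namely Ctrl D0 with K36M D2 and KD D2 with PPARγ WT DMSO. The spread between cultures is not known for any of them.

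**Figure D2:**
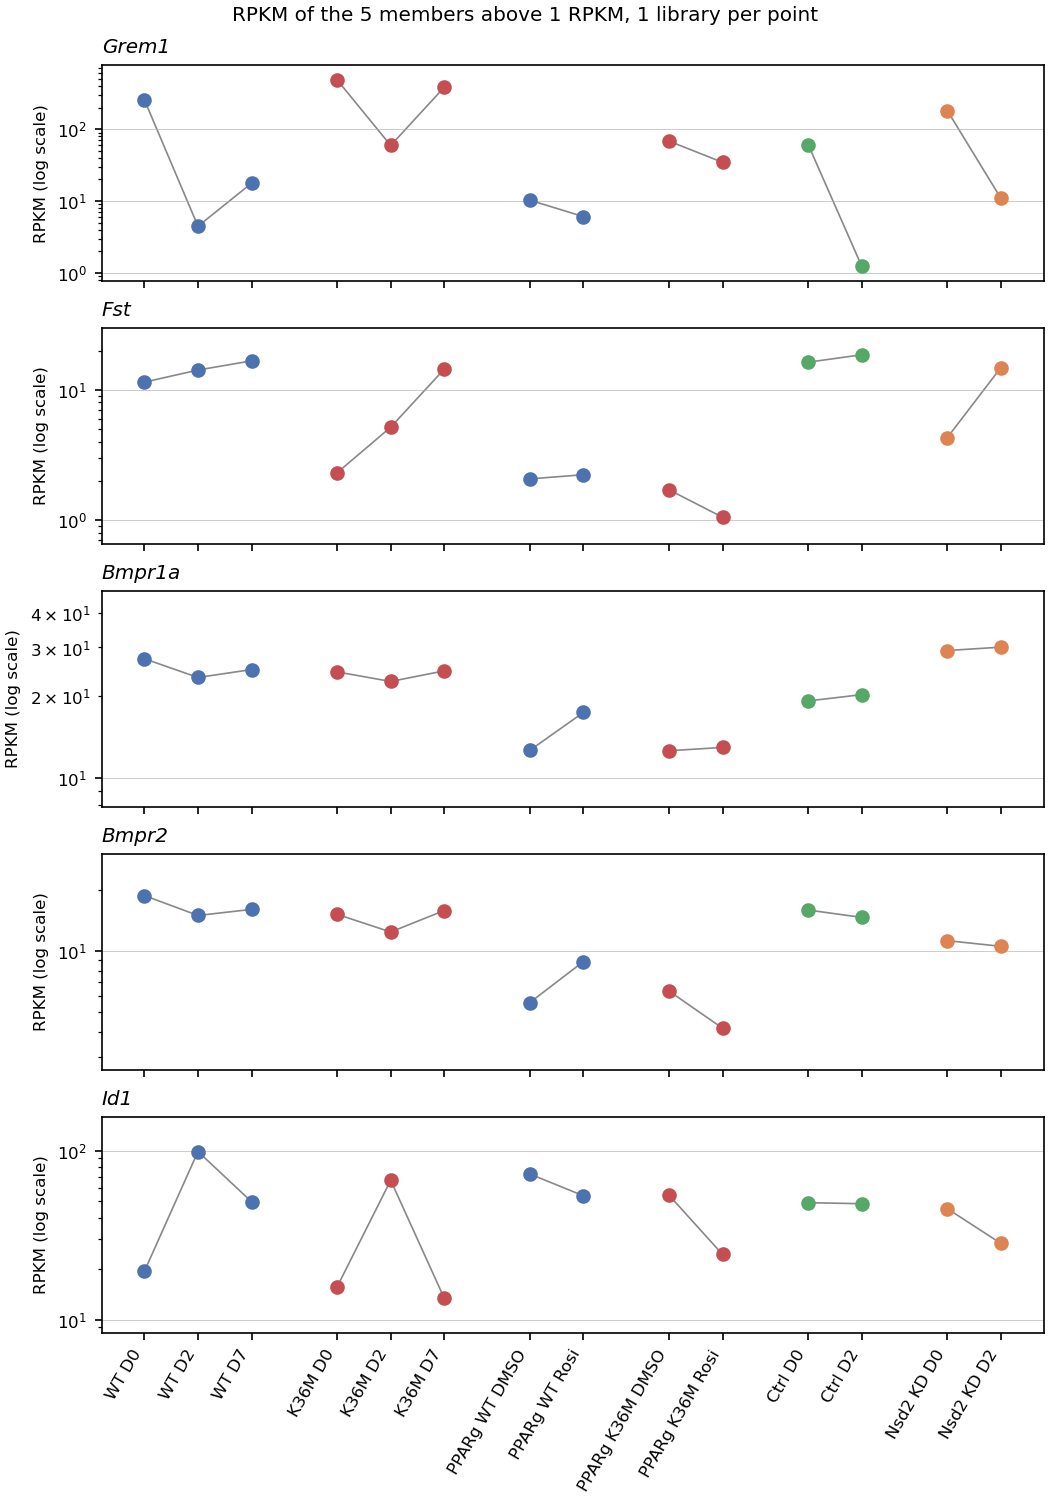
RPKM (log scale) of Grem1, Fst, Bmpr1a, Bmpr2, and Id1, 1 point per library, with lines joining the days or treatments of 1 line of cells (blue WT, red K36M, green Ctrl, orange Nsd2 KD). Grem1 spans 1.24 to 485, with D0 above D2 in all 4 lines, while Bmpr1a stays between 12.6 and 30.1.

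Between D0 and D2 the log2 ratio of *Grem1* was -5.84 (-6.09 to -5.60) in WT, -3.03 (-3.11 to -2.95) in K36M, -5.62 (-6.10 to -5.17) in Ctrl, and -4.05 (-4.22 to -3.89) in KD cells, so it fell in all 4 lines. In WT cells 100 of 12155 genes had a lower ratio than *Grem1*, and in Ctrl cells 68 of 11980. The difference between the ratios was 2.81 for K36M against WT and 1.57 for KD against Ctrl, with the perturbed cells falling less. These differences, and the ranks among genes before them, use the D2 libraries on which *Grem1* was picked and have no test. From D2 to D7 *Grem1* rose by 1.99 (1.70 to 2.28) in WT and by 2.69 (2.60 to 2.78) in K36M cells. Rosi against DMSO gave -0.76 (-1.03 to -0.49) for PPARγ WT and -0.98 (-1.10 to -0.86) for PPARγ K36M cells, neither past 2-fold.

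In the K36M comparison *Grem1* had a log2 ratio of 0.93 (0.89 to 0.96) at D0, just under 2-fold. It was 3.73 (3.48 to 3.99) at D2, which is 13.3-fold, and 4.44 (4.29 to 4.59) at D7, which is 21.6-fold. With ectopic PPARγ it was 2.73 (2.57 to 2.89) in DMSO and 2.51 (2.26 to 2.76) in Rosi. In the knockdown comparison it was 1.57 (1.50 to 1.65) at D0 and 3.14 (2.66 to 3.64) at D2, which is 8.79-fold. At D0 694 of 12239 genes had a higher K36M to WT ratio than *Grem1*, and at D7 86 of 12587 had. With PPARγ it was 135 of 11690 genes in DMSO and 213 of 11987 in Rosi. For KD against Ctrl cells at D0 it was 389 of 11982.

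The unperturbed lines differed as well. *Grem1* was 4.19-fold lower in Ctrl than in WT cells at D0 (log2 ratio -2.07, -2.14 to -2.00) and 3.60-fold lower at D2 (-1.85, -2.39 to -1.34). The KD to Ctrl difference at D0 was thus smaller in size than the difference between both kinds of control cells at that day. Ctrl and WT cells differ in virus, transgene, and experiment, which cannot be told apart.

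Marker levels are given beside *Grem1* for the same pairs. The summed RPKM of 7 brown fat cell markers was 59.6 in WT and 37.0 in K36M cells at D0, 3567 and 1592 at D2, and 3408 and 219 at D7. With PPARγ it was 213 in WT and 150 in K36M cells in DMSO, and 3029 and 1219 in Rosi. In Ctrl and KD cells it was 42.2 and 33.9 at D0, and 1402 and 57.1 at D2. The sum was lower in the perturbed library of all 7 pairs, but at D2 it was mostly *Fabp4*, at 3249 RPKM in WT cells. *Fabp4*, *Cebpa*, and *Plin1* were each higher in the perturbed library of 0 of 7 pairs, and *Pparg* and *Adipoq* in 2 of 7. At D2 *Cebpa* was 208 in WT and 44.9 in K36M cells, whereas *Adipoq* was 6.16 and 10.6. At D7 *Adipoq* was 287 in WT and 21.0 in K36M cells. *Ucp1* and *Cidea* were near 0 throughout.

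The sum of 6 preadipocyte or fibroblast markers was 714 in WT and 340 in K36M cells at D0, 104 and 221 at D2, and 553 and 747 at D7. With PPARγ it was 977 and 1062 in DMSO, and 739 and 524 in Rosi. In Ctrl and KD cells it was 1848 and 478 at D0, and 143 and 53.0 at D2. The sum was thus higher in the K36M library of 3 of 5 pairs and lower in both KD libraries. *Grem1* was higher in all 7, of which the D2 pairs were used to pick it. *Col1a1* carried most of the sum, at 89.9 in Ctrl and 13.7 in KD cells at D2, and single markers differed from the sum. *Dlk1* was higher in the perturbed library of 6 of 7 pairs, at 3.51 in Ctrl and 27.9 in KD cells at D2. *Thy1* was higher in 5 of 7, *Col1a1* in 3, *Pdgfra* and *Pdgfrb* in 2 each, and *Ebf2* in 1. By day, *Ebf2* was 6.82 at D0 and 25.4 at D2 in WT cells, where the sum fell. The sum of 6 osteoblast or chondrocyte genes lay between 4.49 and 51.7, led by *Col2a1* and *Sox9*. It was 28.7 in WT and 24.7 in K36M cells at D0, 7.55 and 6.22 at D2, and also lower in K36M cells at D7. In PPARγ cells the K36M library was higher, at 40.9 against 19.0 in DMSO and 15.1 against 4.49 in Rosi. In Ctrl and KD cells it was 51.7 and 31.7 at D0, and 4.58 and 4.76 at D2. *Col2a1* was higher in the perturbed library of 5 of 7 pairs and *Sox9* in 2 of 7. *Sp7*, which did not pass 2.41 RPKM, was higher in 7 of 7, but several pairs held few reads. At D2 it had 2 reads in WT and 5 in K36M cells, and 1 in Ctrl and 3 in KD cells. *Acan* was higher in 5 of 7, and *Bglap* and *Ibsp* in 3 of 7 each, also at few reads. In bulk RNA a change in the share of cells of a type and a change in RNA per cell cannot be told apart, and the part of cell makeup in the *Grem1* values was not tested.

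*Fst*, which codes for follistatin, ran the other way in these comparisons. Its RPKM was 11.4, 14.2, and 16.7 in WT cells at D0, D2, and D7, and 2.31, 5.16, and 14.4 in K36M cells. It was 16.3 and 18.6 in Ctrl cells at D0 and D2, and 4.30 and 14.8 in KD cells. With PPARγ it was 2.07 and 2.22 in WT cells without and with Rosi, and 1.70 and 1.05 in K36M cells. The perturbed library was the lower one in all 5 K36M pairs and both KD pairs, by amounts that ranged from slight to nearly 5-fold.

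At D0 the log2 ratio of *Fst* was -2.31 (-2.62 to -2.01) for K36M against WT and -1.92 (-2.17 to -1.68) for KD against Ctrl. At D2 it was -1.46 (-1.72 to -1.20) and -0.33 (-0.48 to -0.17). At D7 it was -0.21 (-0.40 to -0.02) for K36M. Between control lines *Fst* was higher in Ctrl than in WT cells by 0.51 (0.35 to 0.67) at D0 and by 0.39 (0.24 to 0.54) at D2. The perturbed cells started lower and rose with time, by 1.16 (0.79 to 1.53) in K36M and 1.79 (1.54 to 2.04) in KD cells from D0 to D2, against 0.31 (0.14 to 0.47) in WT and 0.19 (0.05 to 0.33) in Ctrl cells.

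With PPARγ the *Fst* counts were smaller, between 31 and 105 reads, and its K36M to WT ratio was -0.28 (-0.69 to 0.13) in DMSO and -1.09 (-1.73 to -0.48) in Rosi. The summed RPKM of *Grem1*, *Nog*, and *Fst* lay between 9.10 and 488. *Grem1* made up 95.6% of that sum in WT cells at D0 and 23.2% at D2, and 99.4% and 91.5% in K36M cells. It made up 78.6% and 6.10% in Ctrl cells at D0 and D2, and 97.6% and 42.2% in KD cells. *Fst* was thus the most abundant of the 3 antagonists at D2 in WT, Ctrl, and KD cells and *Grem1* in K36M cells.

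*Bmpr1a*, which codes for a type I BMP receptor, had the narrowest range of the counted members. Its RPKM was 27.3, 23.3, and 24.9 in WT and 24.4, 22.6, and 24.6 in K36M cells over D0, D2, and D7. It was 12.7 and 17.4 in PPARγ WT and 12.6 and 13.0 in PPARγ K36M cells without and with Rosi. In Ctrl cells it was 19.2 and 20.2, and in KD cells 29.2 and 30.1, the highest of all. No comparison reached 2-fold, and the largest ratios to control were 0.61 (0.53 to 0.69) at D0 and 0.57 (0.49 to 0.65) at D2 for KD, beside -0.51 (-0.59 to -0.43) for Ctrl against WT at D0. Between WT and K36M cells the ratio was -0.05 (-0.14 to 0.04) at D2 and -0.02 (-0.11 to 0.08) at D7.

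*Bmpr2*, which codes for the type II BMP receptor, had an RPKM of 18.7, 14.9, and 16.0 in WT and 15.1, 12.4, and 15.8 in K36M cells over the 3 days. It was 15.9 and 14.6 in Ctrl and 11.2 and 10.5 in KD cells, so both KD libraries were lower, with ratios of -0.50 (-0.64 to -0.36) and -0.47 (-0.62 to -0.33). In PPARγ WT cells *Bmpr2* stood at 5.57 in DMSO and 8.86 in Rosi, and in PPARγ K36M cells at 6.34 and 4.17. The ratio of K36M to WT in Rosi was -1.09 (-1.34 to -0.84), the only comparison in which *Bmpr2* passed 2-fold. The PPARγ libraries held the 4 lowest levels of *Bmpr2*, and also of *Bmpr1a* and *Fst*. PPARγ, sub-confluent culture, and experiment cannot be told apart there.

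*Id1*, a direct target of BMP signaling, was at 19.4, 98.7, and 49.8 RPKM in WT and 15.6, 66.7, and 13.4 in K36M cells at D0, D2, and D7. In Ctrl cells it was 49.2 and 48.5, and in KD cells 45.3 and 28.2, at D0 and D2. With PPARγ it was 72.6 and 54.0 in WT and 54.4 and 24.3 in K36M cells without and with Rosi. *Id1* was lower in the perturbed library of all 5 K36M pairs and both KD pairs, and in the KD pair at D0 the interval held 0 (-0.12, -0.26 to 0.02).

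The K36M to WT ratio of *Id1* was -0.31 (-0.53 to -0.08) at D0, -0.57 (-0.69 to -0.44) at D2, and -1.89 (-2.16 to -1.63) at D7, where 448 of 12587 genes were lower. With PPARγ it was -0.42 (-0.53 to -0.30) in DMSO and -1.15 (-1.35 to -0.96) in Rosi. For KD against Ctrl at D2 it was -0.78 (-0.95 to -0.62). Between the control lines *Id1* went in different directions by day, 1.35 (1.17 to 1.52) at D0 and -1.03 (-1.14 to -0.91) at D2.

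The course of *Id1* differed between experiments. From D0 to D2 it rose by 2.35 (2.19 to 2.51) in WT and 2.09 (1.89 to 2.29) in K36M cells, whereas the ratio was -0.02 (-0.16 to 0.12) in Ctrl and -0.68 (-0.86 to -0.51) in KD cells. From D2 to D7 it was -0.99 (-1.12 to -0.85) in WT and -2.32 (-2.58 to -2.06) in K36M cells. *Grem1* thus passed 2-fold down by D2 in all 4 lines, and *Id1* passed 2-fold up in WT and K36M and not in Ctrl and KD cells, a difference that was not tested.

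**Figure D3:**
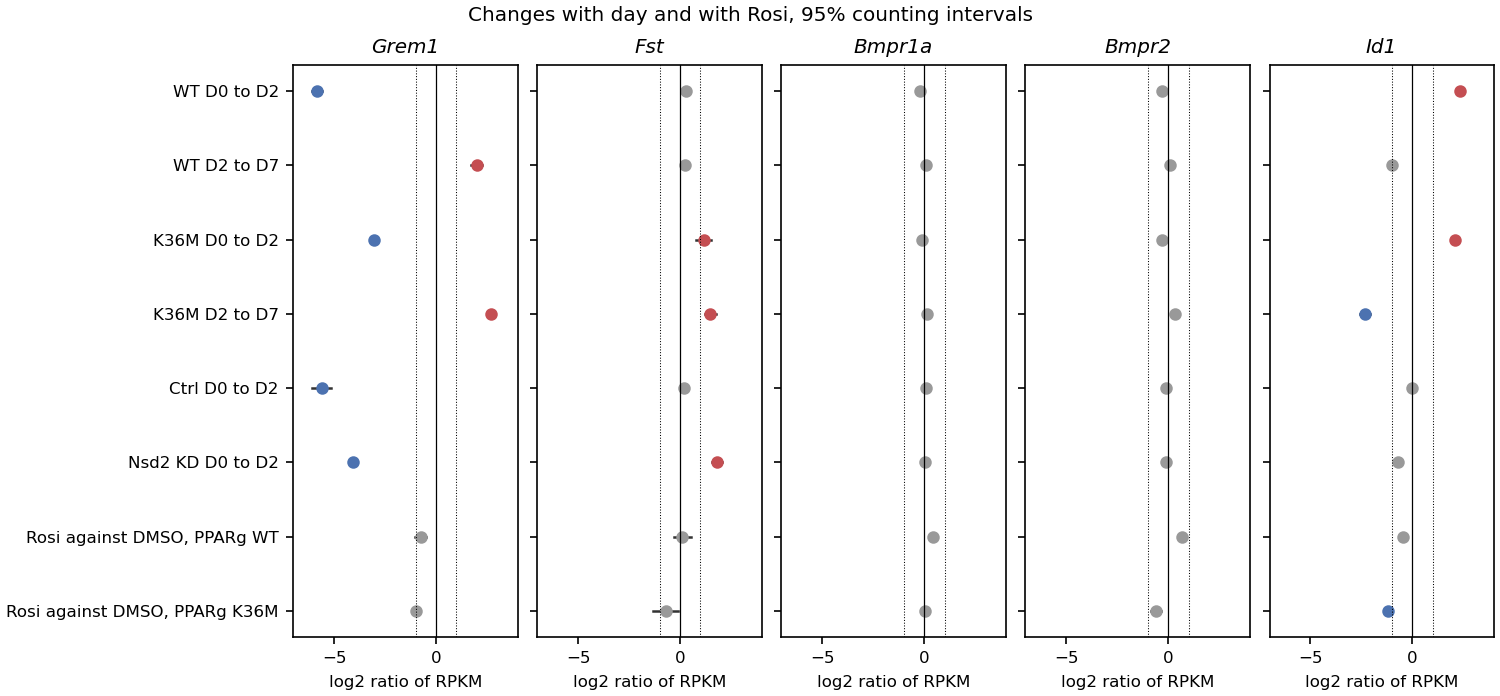
Log2 ratio of RPKM (horizontal axis) for each change with day or Rosi, with 95% counting intervals (bars, often narrower than the points) for 5 members. Red and blue points passed 2-fold up and down, gray did not, and dotted lines mark 2-fold. Grem1 is at -5.84, -3.03, -5.62, and -4.05 from D0 to D2, and Id1 at 2.35 and 2.09 in WT and K36M but -0.02 and -0.68 in Ctrl and Nsd2 KD cells.

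Counts of called members were read against all genes. Of the 5 members counted, 2 were called for WT cells between D0 and D2 (*Id1* up, *Grem1* down), where 26.7% of genes did, and 3 in K36M cells (*Fst* and *Id1* up, *Grem1* down), where 21.5% did. In Ctrl cells 1 passed (*Grem1* down, 27.4% of genes), and in KD cells 2 (*Fst* up, *Grem1* down, 28.6% of genes). From D2 to D7 it was 1 in WT cells (*Grem1* up, 20.8% of genes) and 3 in K36M cells (*Grem1* and *Fst* up, *Id1* down, 22.7% of genes). With Rosi it was 0 in PPARγ WT cells (15.0% of genes) and 1 in PPARγ K36M cells (*Id1* down, 16.8% of genes). With only 5 members counted, none of these counts was read as a result about the members. Those by day also use the D2 libraries on which *Grem1* was picked.

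Between K36M and WT cells 1 of 5 members passed at D0 (*Fst* down, 11.4% of genes), 2 at D7 (*Grem1* up, *Id1* down, 20.2%), 1 with PPARγ and DMSO (*Grem1* up, 8.20%), and 4 with PPARγ and Rosi (*Grem1* up and *Fst*, *Bmpr2*, and *Id1* down, 19.1%). At D2 it was 2 (*Grem1* up, *Fst* down, 15.6%). Between KD and Ctrl cells it was 2 at D0 (*Grem1* up, *Fst* down, 17.4%) and 1 at D2 (*Grem1* up, 14.4%). Nothing is read from any of these counts of 5 members, and the genes were picked partly on both D2 contrasts. Between Ctrl and WT cells, both unperturbed, 2 members passed at D0 (*Id1* up, *Grem1* down, 22.2%) and 2 at D2 (*Grem1* and *Id1* down, 11.2%). The median log2 ratio of all counted genes was -0.24 and -0.14 in these last comparisons, 0.12 for K36M against WT at D7, and -0.11 with PPARγ and Rosi. Elsewhere it stayed within 0.1 of 0.

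**Figure D4:**
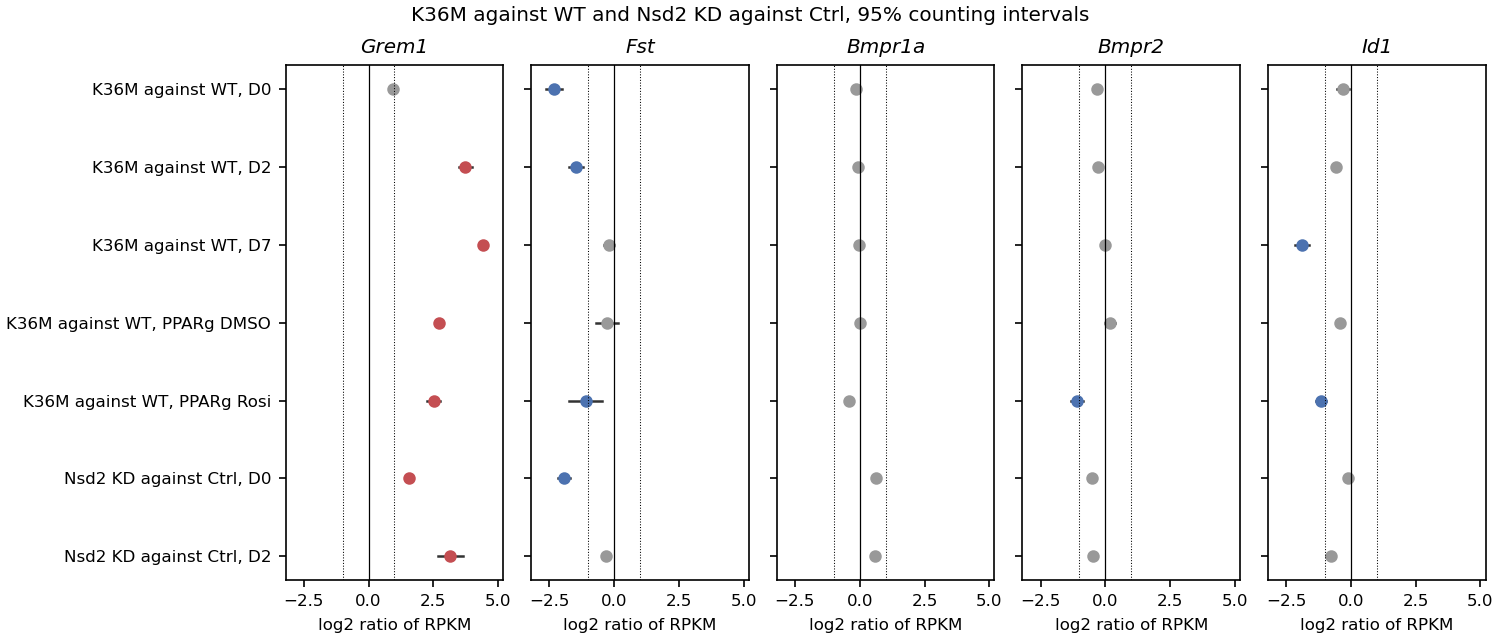
Log2 ratio of RPKM (horizontal axis) for 5 pairs of K36M and WT libraries and 2 pairs of Nsd2 KD and Ctrl libraries, with 95% counting intervals (bars), colored as passed 2-fold up (red), down (blue), or neither (gray). Grem1 lies right of 0 in all 7 pairs, at 0.93 to 4.44, and Fst and Id1 lie left of 0 in all 7. The D2 pairs are those on which Grem1 was picked.

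The other genes of the pathway were taken from a list, of which 57 genes in 7 roles are reported. Of those counted, 12 of 40 were called between K36M and WT cells at D0 (3 up, 9 down), 18 of 37 at D2 (14 up, 4 down), and 19 of 41 at D7 (14 up, 5 down). With PPARγ it was 10 of 38 in DMSO (7 up, 3 down) and 18 of 39 in Rosi (8 up, 10 down). Between KD and Ctrl cells it was 14 of 38 at D0 (3 up, 11 down) and 8 of 33 at D2 (2 up, 6 down). These shares of 24.2% to 48.6% stand beside the 8.20% to 20.2% of all genes called in the same comparisons, and the list was drawn up with earlier results known. By day and with Rosi the share of the list was above that of all genes as well. It was 53.8% beside 26.7% for WT and 59.0% beside 27.4% for Ctrl cells from D0 to D2. With Rosi in PPARγ WT cells it was 32.4% beside 15.0%. Between Ctrl and WT cells, both unperturbed, 14 of 40 were called at D0 (35.0%, beside 22.2% of all genes) and 4 of 34 at D2 (11.8%, beside 11.2%). At D0, D2, and D7 the median log2 ratio of the list between K36M and WT cells stood at -0.13, 0.50, and 0.58, and with PPARγ at -0.11 in DMSO and -0.29 in Rosi, so it was above 0 in 2 of 5 pairs. Over all counted genes these medians were 0.09, 0.07, 0.12, -0.02, and -0.11. Between KD and Ctrl cells the list stood at -0.24 at D0 and -0.03 at D2, and all counted genes at -0.002 and -0.05.

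Among other ligands *Gdf7*, a BMP-related growth factor, was called up in all 5 K36M pairs. Its RPKM was 1.17, 0.0748, and 0.429 in WT and 9.18, 5.08, and 2.69 in K36M cells at D0, D2, and D7, and it did not reach 1 in Ctrl or KD cells. Of the activin subunits, whose dimers follistatin captures, *Inhbb* was 1.50 in WT and 31.3 in K36M cells at D2 (log2 ratio 4.38) and 3.42 and 74.8 at D7 (4.45). *Inhba* was 5.16 in Ctrl and 28.5 in KD cells at D2 (2.47) but 16.4 in WT and 3.76 in K36M cells (-2.13). *Inhba* thus stood in opposite directions at D2, but it was called up in KD cells at D0 (1.67) and in K36M cells at D7 (1.62) and with PPARγ and Rosi (2.03).

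Of the receptors, *Acvr1*, another type I receptor, was not called in any K36M or KD pair. *Tgfbr3*, the co-receptor betaglycan with the highest mean level of its group, was called down in 2 of 5 K36M pairs, at D0 and with PPARγ and Rosi. It was 82.6 in WT and 105 in K36M cells at D2 (0.35) and 30.4 and 7.06 with PPARγ and Rosi (-2.10). *Eng*, the co-receptor endoglin, was up in 3 of 5 K36M pairs and down in both KD pairs. At D2 it was 2.82 in WT and 10.5 in K36M cells (1.90), and 1.91 in Ctrl and 0.594 in KD cells (-1.68). *Smad4*, the shared Smad, was not called in any of these pairs and lay between 17.8 and 30.8 RPKM in all 14 libraries.

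The other secreted antagonists went different ways. *Bmper*, which codes for an extracellular BMP modulator, was 27.3 in Ctrl and 2.28 in KD cells at D2 (-3.58), and 19.3 in WT and 18.2 in K36M cells (-0.08). It was called up in 3 K36M pairs, at D7 (1.07) and with PPARγ in DMSO (2.12) and Rosi (2.04). *Fstl1*, a follistatin-related gene with a mean RPKM of 289 over the libraries, was 178 in WT and 390 in K36M cells at D2 (1.13) and 180 in Ctrl and 209 in KD cells (0.21). *Fstl3*, which codes for an activin-binding relative of follistatin, was 0.884 in WT and 5.07 in K36M cells at D2 (2.52), was also called up in K36M cells at D7 (1.53) and with PPARγ and Rosi (1.04), and was called down in KD cells at D0 (-2.13).

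The targets were likewise split. *Id4* was called down in all 5 K36M pairs and in KD cells at D2, and was the only gene of the list called in the same direction in both D2 contrasts. It was 3.75 in WT and 0.913 in K36M cells at D2 (-2.04), and 6.28 in Ctrl and 3.14 in KD cells, just past 2-fold. *Id3*, the most abundant target with a mean RPKM of 110, was 98.4, 62.5, and 110 in WT and 33.9, 168, and 52.8 in K36M cells, so the K36M library was lower at D0 (-1.54) and D7 (-1.06) and higher at D2 (1.42). *Id2* did the same, at -1.16 at D0, 1.23 at D2, and just past 2-fold lower at D7. *Atoh8*, a BMP-responsive transcription factor gene, was 25.8 and 6.50 at D0 (-1.99), 29.5 and 46.1 at D2 (0.64), and 24.9 and 12.4 at D7 (-1.01). *Id1*, *Id2*, and *Id3* therefore differed at D2, where the ratio of *Id1* was -0.57.

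**Figure D5:**
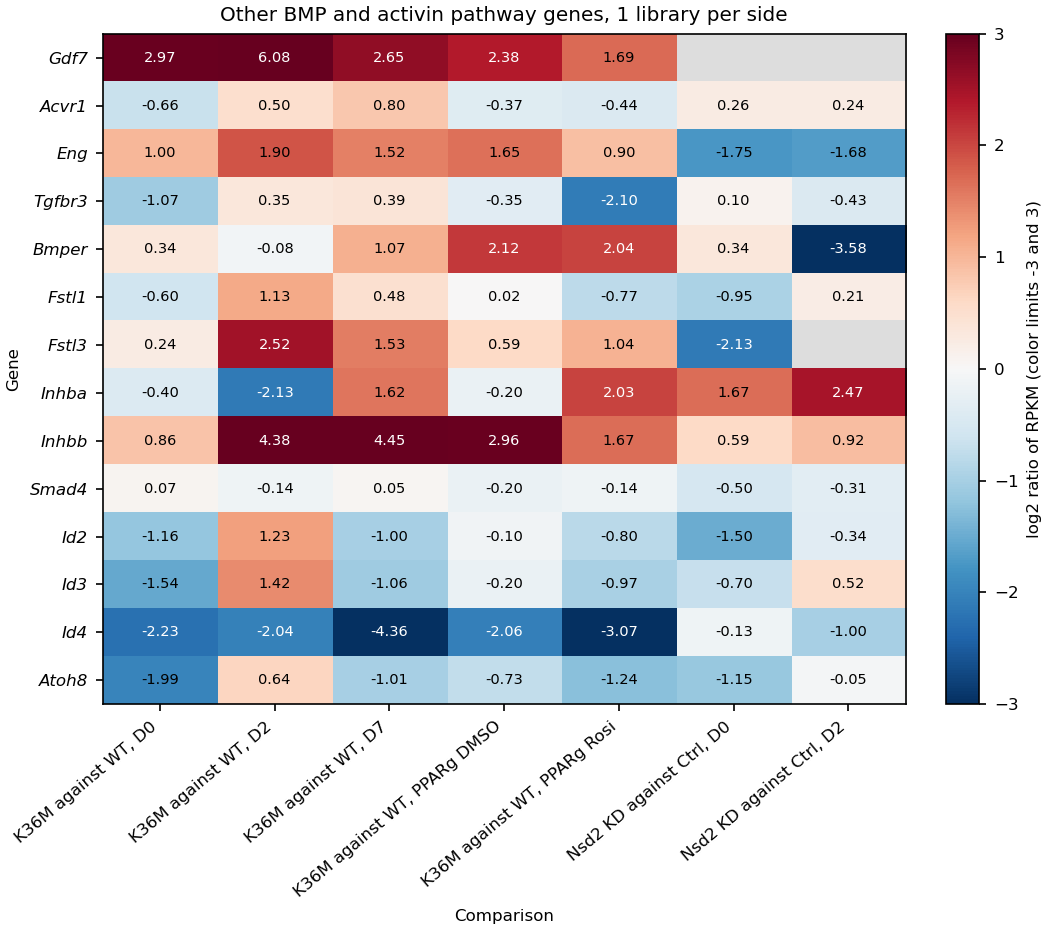
Log2 ratio of RPKM of 14 further pathway genes (rows) in 7 pairs of libraries (columns), with the value printed in each cell and gray where neither library reached 1 RPKM. Gdf7 is above 1 in all 5 K36M pairs and Id4 at or below -2.04 in them, while Inhba is at -2.13 in K36M and 2.47 in Nsd2 KD cells at D2.

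Across the 14 libraries the genes whose log2 levels ran most like *Grem1*, among 8532 genes with a mean RPKM of at least 5, were *Nradd* (Pearson's r = 0.950), *Poglut1* (0.942), *Trim59* (0.937), *Syne1* (0.929), and *Pla2g4a* (0.924). *Nradd* ran from 3.88 in Ctrl cells at D2 to 25.7 in K36M cells at D0, the lowest and highest libraries of *Grem1* as well. Those most like *Id1* were *Impdh1* (0.891), *Cops9* (0.868), *Ndufa4* (0.863), *Cars2* (0.860), and *Parp1* (0.854). These values describe 14 libraries that share lines, days, and depth, and have no test.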

How the data were processed

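The members and the gene lists were chosen with earlier results of these data known. The files of 14 RNA-Seq libraries, 1 per condition, hold RPKM for 29082 RefSeq transcripts as scaled and deposited by the authors; any program that counted the reads is not given in the sources used here. The submitters' processing notes name CASAVA 1.8.2, SICER, and mm9, with no role. The ChIP-Seq samples, 20 of 34, were not analysed here.

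Symbols from the RefSeq gene table were matched to 28436 transcripts (97.8%), and a gene took its transcript with the highest mean RPKM. Whole reads were recovered from the RPKM values (relative tolerance 1e-09) in 26945 of the 26946 transcripts with a value above 0 in 2 or more libraries, and reads sharing a common factor can be understated. Recovery, calls, and intervals were tested on simulated data. Samples were grouped by their titles, and each of 17 comparisons set 1 library against another. Positions came from GENCODE M1 on NCBIM37 (mm9).

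All 9 members were named. Further pathway genes were named when called in the same direction in both D2 contrasts, when highest by mean RPKM in their role, or when, at a mean RPKM of at least 5, called in at least 3 K36M pairs or both KD pairs. A gene of the pathway list is not reported here and was left out of its counts. The 5 genes most like *Grem1* and *Id1* were ranked by Pearson's r of log2(RPKM + 0.1). Alternatives were pseudocounts of 0.1 and 1, other RPKM minimums, median-ratio rescaling, the sum of transcripts, and a call that needs the interval to exclude 1. Python 3.11.15, numpy 2.4.6, pandas 2.3.3, scipy 1.17.1, and matplotlib 3.10.9 were used.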

Additional observations from a re-analysis of the deposited data

Results flagged for a closer look

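With 1 library per condition, the results given here are those in which the same contrast went in opposite directions in different cells with both counting intervals off 0, and the differences were not tested. The log2 ratio of *Id1* from D0 to D2 was 2.35 in WT and 2.09 in K36M cells but -0.68 in *Nsd2* KD cells. That of *Bmpr2* with Rosi was 0.67 (0.48 to 0.86) in PPARγ WT and -0.61 (-0.85 to -0.36) in PPARγ K36M cells. Between K36M and WT cells *Bmpr2* was at -0.31 at D0, -0.27 at D2, and -1.09 with PPARγ and Rosi, but at 0.19 (0.00 to 0.37) with PPARγ and DMSO, where the interval barely misses 0.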

How the results depend on the processing

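No fit with a replicate block was made, since each condition has 1 library and the labels give no replicate numbers. The pairs matched by day or treatment were set side by side and not tested as replicates. Of 119 counts of called members under 7 alternatives, 102 stayed within 1.5 times the value given. With any RPKM above 0 counted, which adds *Bmp2*, *Bmp4*, *Bmp7*, and *Nog* at a few reads, the counts moved to 3 for WT D2 to D7, 6 for K36M D0 to D2, 5 for K36M D2 to D7, 3 for Ctrl D0 to D2, 4 for Rosi in PPARγ WT and 2 in PPARγ K36M cells. Between K36M and WT cells they became 2 at D0, 4 at D2, 6 at D7, 4 with PPARγ and DMSO, and 7 with Rosi, between KD and Ctrl cells 6 at D0 and 2 at D2, and between Ctrl and WT cells 4 at D2. Rescaling by the median ratio moved WT D2 to D7 from 1 to 2 and Ctrl against WT at D2 from 2 to 1, with *Id1* crossing 2-fold in both, and a pseudocount of 1 moved K36M against WT with Rosi from 4 to 2. The log2 ratio of *Grem1* at D2 became 3.46 for K36M and 2.41 for KD with a pseudocount of 1. Of 340 values of the members' 85 ratios under 4 alternatives, 324 stayed within the counting interval, and no called ratio changed sign. Rescaling moved the share of higher calls among all genes from 31.9% to 50.5% between Ctrl and WT cells at D0. Leaving out a replicate could not be tried, and the spread between cultures, which these intervals do not hold, limits every comparison.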
